A study of Mus musculus with 7 samples.

Results

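Writers and erasers of methylation on lysine 4 of histone H3 (H3K4) were followed through 7 mouse RNA-Seq libraries as 9 genes. They were 3 shared core subunits of the writing complexes (Wdr5, Ash2l and Dpy30), 3 catalytic subunits (Kmt2a, Kmt2b and Kmt2d) and 3 demethylases (Kdm1a, Kdm5a and Kdm5b). The genes were taken by symbol, each matched 1 Ensembl identifier, and they are 9 of the 29267 genes in the deposited tables.

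Methyl groups on H3K4 mark promoters and enhancers that are active or can become active. They are placed by SET domain enzymes of the Kmt2 and Setd1 families, which work in complexes built on a common core of WDR5, RBBP5, ASH2L and DPY30, and each enzyme type brings subunits of its own. KDM1A removes mono- and dimethyl marks as part of the CoREST complex, and the KDM5 enzymes remove di- and trimethyl marks. In pluripotent cells the core subunits, WDR5 in particular, are known for their part in self-renewal and in reprogramming.

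The study reprogrammed OG2 mouse embryonic fibroblasts (MEFs), which carry a GFP transgene under the Oct4 promoter, by retroviral delivery of c-Myc, Klf4, Oct4 and Sox2. The infected cells were kept in mES medium, which has serum, or in the serum-free 5C medium with N2 supplement, bFGF and LIF, and vitamin C was in both. Cells sorted on day 15 by GFP gave 4 libraries with no further passage, named mES-Oct4GFP+ and mES-Oct4GFP- for the first medium, 5C-Oct4GFP+ and 5C-Oct4GFP- for the second, so that these 4 groups share the transgene and the 4 retroviral factors. 5C-Oct4GFP+ cells converted in naive medium (LIF and 2i) or in primed medium gave the libraries 5C-Oct4GFP+ (naive) and 5C-Oct4GFP+ (primed). Both come from the same infected MEFs, so they carry the transgene and the 4 factors too. R1 ESCs-primed are mouse embryonic stem cells of the R1 line, not made by this reprogramming, and were brought to the primed state on MEF feeder cells. The study then kept such primed cells on FBS-coated plates, with small molecules in place of bFGF and activin A. The labels give 20 passages for the converted libraries and for R1 ESCs-primed. The study also describes both conversions as cultures of days, and which holds for the sequenced cells could not be settled here. The sorted cells are mixtures defined by 1 reporter, and every group is 1 library, so no difference below has a replicate check or a test. Intervals are 95% Clopper-Pearson intervals from the read counts of the libraries compared. They cover counting error alone, and reads without molecular identifiers are not independent molecules.

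The expected counts summed to between 6108252 and 11496615 per library, and the 9 genes had between 477 and 5838 counts each in every library. Levels are given as TPM, transcript abundance per length with a common total for all libraries, on which genes can be compared. The labels were checked against marker lists. The summed level of 8 naive markers was 1832, 900.0 and 1574 TPM in mES-Oct4GFP+, 5C-Oct4GFP+ and 5C-Oct4GFP+ (naive), against 77.0 and 81.3 TPM in mES-Oct4GFP- and 5C-Oct4GFP-, and 8.65 and 25.3 TPM in 5C-Oct4GFP+ (primed) and R1 ESCs-primed. The 8 primed markers summed to 1251 and 1085 TPM in the 2 primed libraries and to between 64.5 and 303 TPM in the other 5. Not each of them followed the sum. Lef1 was at 43.9 and 45.7 TPM in mES-Oct4GFP+ and 5C-Oct4GFP+ (naive), against 27.45 and 35.5 TPM in 5C-Oct4GFP+ (primed) and R1 ESCs-primed. Otx2 was at 189 TPM in 5C-Oct4GFP+ and 134 TPM in R1 ESCs-primed. The remaining markers were higher in both primed libraries than in any other. Of 8 general pluripotency markers, 5 were at least 1.5-fold higher in mES-Oct4GFP+ than in mES-Oct4GFP- and 3 were lower. Nanog was higher, at 697 and 17.1 TPM. The lower ones were Pou5f1 (Oct4) at 1321 and 3640 TPM, Sox2 at 328 and 498 TPM and Lin28a at 24.2 and 75.9 TPM. The deposited values do not separate retroviral from endogenous Pou5f1 and Sox2. In 5C medium 7 of the 8 were higher in GFP-positive cells and 0 lower. The 8 general pluripotency markers summed to between 2696 TPM, in 5C-Oct4GFP-, and a highest value of 9828 TPM, in 5C-Oct4GFP+. The 10 fibroblast markers summed to 616 and 273 TPM in mES-Oct4GFP- and 5C-Oct4GFP-, to 229.5 TPM in R1 ESCs-primed and 80.5 TPM in 5C-Oct4GFP+ (primed), and to at most 15.7 TPM in the other 3. The 8 markers of cycling cells summed to 850.4 TPM in mES-Oct4GFP- and to between 2042 and 2862 TPM in the other 6.

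The shared core subunits were highest in the Oct4GFP+ and naive libraries and lowest in mES-Oct4GFP- cells. WDR5 is the WD-repeat subunit that joins the catalytic subunit to the rest of the core. Wdr5 (chr2:27515157-27536535, plus strand, GENCODE M21 on GRCm38) stood at 83.8 and 203 TPM in mES-Oct4GFP- and 5C-Oct4GFP- cells, at 287 and 314 TPM in mES-Oct4GFP+ and 5C-Oct4GFP+ cells, at 321 TPM in 5C-Oct4GFP+ (naive) cells, and at 143 and 130.5 TPM in 5C-Oct4GFP+ (primed) cells and R1 ESCs-primed. The 3 GFP-positive and naive libraries lay above all others, 5C-Oct4GFP- came next, and the range was 3.83-fold. Of the 6 neighbouring pairs in this order, only 5C-Oct4GFP+ and 5C-Oct4GFP+ (naive) were within counting error of each other (ratio 1.02, interval 0.979 to 1.06).

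ASH2L is the subunit that, together with RBBP5, stimulates the methyltransferase activity. Ash2l (chr8:25815996-25847694, minus strand) was measured at 81.1 and 90.7 TPM in mES-Oct4GFP- and 5C-Oct4GFP- cells, at 317 and 239 TPM in mES-Oct4GFP+ and 5C-Oct4GFP+ cells, at 315 TPM in 5C-Oct4GFP+ (naive) cells, and at 107 and 117 TPM in 5C-Oct4GFP+ (primed) cells and R1 ESCs-primed. Unlike Wdr5, it was low in both Oct4GFP- libraries, and its 3.90-fold range was the widest of the 9 genes. mES-Oct4GFP+ and 5C-Oct4GFP+ (naive), the highest pair, were within counting error (ratio 1.01, interval 0.954 to 1.06).

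DPY30 is a small subunit that docks on ASH2L. Dpy30 (chr17:74299474-74323944, minus strand) reached 151 and 235 TPM in mES-Oct4GFP- and 5C-Oct4GFP- cells, 416 and 409 TPM in mES-Oct4GFP+ and 5C-Oct4GFP+ cells, 513 TPM in 5C-Oct4GFP+ (naive) cells, and 229.8 and 237 TPM in 5C-Oct4GFP+ (primed) cells and R1 ESCs-primed. It was the highest of the 9 genes in all 7 libraries. 5C-Oct4GFP- cells and the primed pair could not be ordered by their counts, with ratios of 1.02 (interval 0.929 to 1.13) and 1.01 (interval 0.906 to 1.12) between neighbours. Rbbp5, the remaining core subunit, was also highest in the Oct4GFP+ and naive libraries and lowest in mES-Oct4GFP- cells, with 43.0 and 65.7 TPM in mES-Oct4GFP- and 5C-Oct4GFP-, 102 and 80.4 TPM in mES-Oct4GFP+ and 5C-Oct4GFP+, 85.1 TPM in 5C-Oct4GFP+ (naive), and 52.1 and 47.3 TPM in 5C-Oct4GFP+ (primed) and R1 ESCs-primed.

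**Figure D1:**
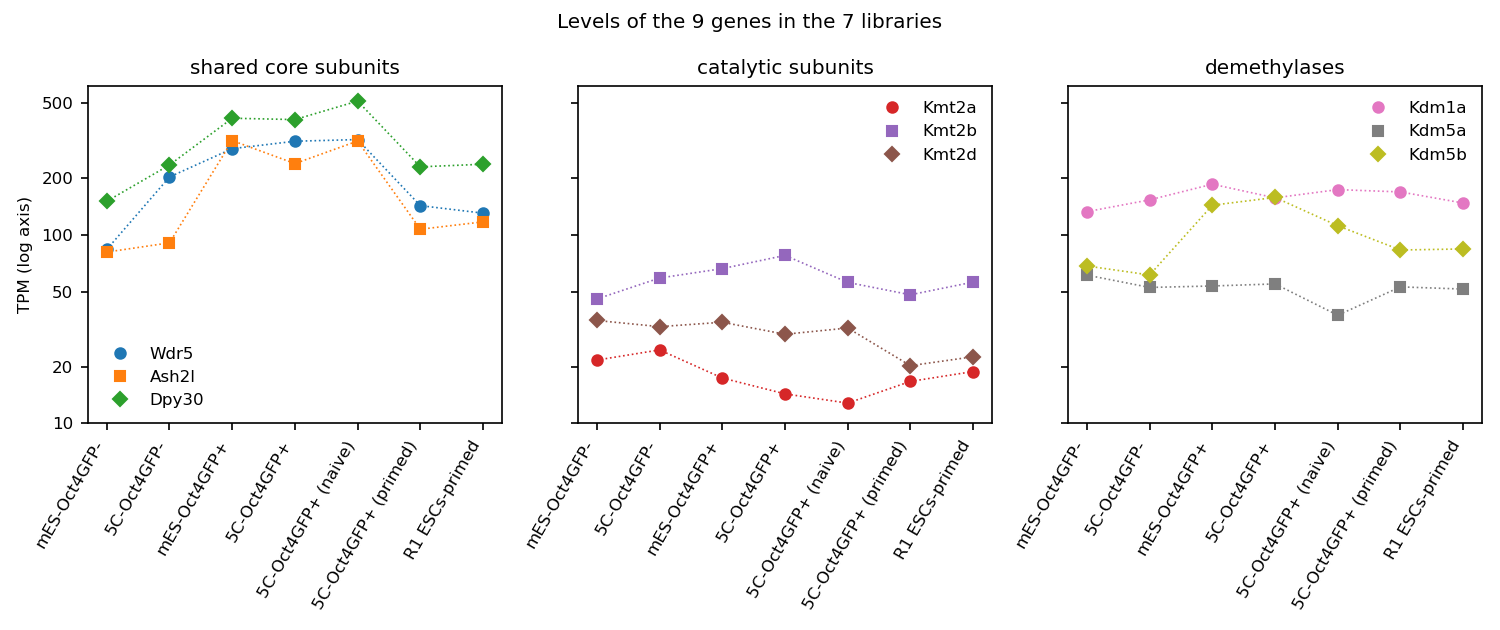
Each point is the TPM of a gene (log axis) in a library, with 1 panel for each role and dotted lines that only join the points of a gene. Wdr5, Ash2l, Dpy30 and Kdm5b stand highest in mES-Oct4GFP+, 5C-Oct4GFP+ and 5C-Oct4GFP+ (naive), Wdr5 in 5C-Oct4GFP- stands at 203 TPM against 90.7 TPM for Ash2l, and Kdm1a stays between 133 and 186 TPM.

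The catalytic subunits varied less. KMT2A, also called MLL1, is the enzyme best known for keeping developmental genes active. Kmt2a (chr9:44803355-44881296, minus strand) was at 21.7 and 24.5 TPM in mES-Oct4GFP- and 5C-Oct4GFP- cells, at 17.4 and 14.3 TPM in mES-Oct4GFP+ and 5C-Oct4GFP+ cells, at 12.8 TPM in 5C-Oct4GFP+ (naive) cells, and at 16.7 and 18.8 TPM in 5C-Oct4GFP+ (primed) cells and R1 ESCs-primed. Its highest libraries were the 2 Oct4GFP- ones, and the naive library, where the 3 core subunits were at or near their highest, was its lowest.

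KMT2B, or MLL2, acts mainly at promoters poised in embryonic stem cells. Kmt2b (chr7:30568858-30588726, minus strand) was at 45.7 and 59.0 TPM in mES-Oct4GFP- and 5C-Oct4GFP- cells, at 66.2 and 77.85 TPM in mES-Oct4GFP+ and 5C-Oct4GFP+ cells, at 56.0 TPM in 5C-Oct4GFP+ (naive) cells, and at 48.1 and 56.2 TPM in 5C-Oct4GFP+ (primed) cells and R1 ESCs-primed. It peaked in 5C-Oct4GFP+ cells and its range was 1.70-fold. The transcript length assigned to Kmt2b varied between 4784 and 5751 bases over the libraries, which enters its TPM.

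KMT2D, or MLL4, is an enhancer methyltransferase. Kmt2d (chr15:98831669-98871204, minus strand) was at 35.1 and 32.6 TPM in mES-Oct4GFP- and 5C-Oct4GFP- cells, at 34.4 and 29.7 TPM in mES-Oct4GFP+ and 5C-Oct4GFP+ cells, at 32.05 TPM in 5C-Oct4GFP+ (naive) cells, and at 20.2 and 22.55 TPM in 5C-Oct4GFP+ (primed) cells and R1 ESCs-primed. The 2 primed libraries were the lowest, and 4 of the 6 neighbouring pairs were within counting error. The transcript length that the authors' RSEM run assigned to Kmt2d varied between 6930 and 10797 bases over the libraries, and this enters its TPM. Over the 6 genes of the Kmt2 and Setd1 families that can fill the catalytic place, the summed level was between 160 and 205 TPM in all 7 libraries, while the sum of Wdr5, Ash2l and Dpy30 had its lowest value, 316 TPM, in mES-Oct4GFP- cells and its highest, 1149 TPM, in the naive library.

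The demethylases split into 1 gene that followed the core subunits and 2 that did not. KDM5B (JARID1B) removes di- and trimethyl marks. Kdm5b (chr1:134560171-134635285, plus strand) was at 68.4 and 61.3 TPM in mES-Oct4GFP- and 5C-Oct4GFP- cells, at 144 and 158 TPM in mES-Oct4GFP+ and 5C-Oct4GFP+ cells, at 112 TPM in 5C-Oct4GFP+ (naive) cells, and at 83.2 and 84.2 TPM in 5C-Oct4GFP+ (primed) cells and R1 ESCs-primed. The 3 Oct4GFP+ and naive libraries were again the highest, and the 2 primed libraries were within counting error of each other (ratio 1.01, interval 0.958 to 1.07).

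KDM5A is the RB-binding member of the same family. Kdm5a (chr6:120364124-120444574, plus strand) was at 61.2 and 52.6 TPM in mES-Oct4GFP- and 5C-Oct4GFP- cells, at 53.6 and 54.9 TPM in mES-Oct4GFP+ and 5C-Oct4GFP+ cells, at 37.5 TPM in 5C-Oct4GFP+ (naive) cells, and at 53.0 and 51.6 TPM in 5C-Oct4GFP+ (primed) cells and R1 ESCs-primed. From R1 ESCs-primed up to 5C-Oct4GFP+ each neighbouring pair was within counting error, with the naive library below and mES-Oct4GFP- above them. The transcript length assigned to Kdm5a varied between 3308 and 4868 bases. Kdm5a shares 251 exonic bases with Ccdc77 on the opposite strand, which reads from this unstranded kit cannot assign.

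KDM1A (LSD1) is the flavin-dependent demethylase. Kdm1a (chr4:136550540-136602723, minus strand) was at 133 and 153 TPM in mES-Oct4GFP- and 5C-Oct4GFP- cells, at 186 and 157 TPM in mES-Oct4GFP+ and 5C-Oct4GFP+ cells, at 174 TPM in 5C-Oct4GFP+ (naive) cells, and at 169 and 148 TPM in 5C-Oct4GFP+ (primed) cells and R1 ESCs-primed. Its 1.40-fold range was the narrowest of the 9 genes, and mES-Oct4GFP- was again the lowest library.

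Promoter sequence is shown for Wdr5 and for the genes with the widest and the narrowest range that the RefSeq table of GRCm38.p6 holds, which leaves Wdr5 and Kdm1a, since Ash2l has no entry. Kdm5b was added after its values were seen, because its 3 highest libraries were those of the core subunits. Each line gives the 250 bases before the listed start, from 5′ to 3′ on the strand of the gene, with capitals marking ACGTG or GCGTG on either strand. These letters are the core of the hypoxia response element, which HIF1α binds, and HIF1α is a factor the study followed.
Wdr5, chr2:27514897-27515146, plus strand: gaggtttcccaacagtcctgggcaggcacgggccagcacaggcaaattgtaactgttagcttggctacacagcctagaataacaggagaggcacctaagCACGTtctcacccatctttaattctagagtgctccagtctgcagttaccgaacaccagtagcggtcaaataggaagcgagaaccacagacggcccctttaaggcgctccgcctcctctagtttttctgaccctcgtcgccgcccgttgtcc
Kdm5b, chr1:134559928-134560177, plus strand: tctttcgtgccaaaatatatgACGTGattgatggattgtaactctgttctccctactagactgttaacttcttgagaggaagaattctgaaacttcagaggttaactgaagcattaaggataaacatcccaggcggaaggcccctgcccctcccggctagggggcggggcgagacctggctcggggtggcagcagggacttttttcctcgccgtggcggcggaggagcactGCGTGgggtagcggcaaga
Kdm1a, chr4:136602724-136602973, minus strand: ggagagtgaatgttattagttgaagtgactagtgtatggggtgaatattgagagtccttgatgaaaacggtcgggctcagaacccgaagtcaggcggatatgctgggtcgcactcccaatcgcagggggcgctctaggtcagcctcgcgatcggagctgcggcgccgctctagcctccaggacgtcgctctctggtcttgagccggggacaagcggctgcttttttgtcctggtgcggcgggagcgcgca

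Wdr5 holds 1 match, 147 to 151 bases before the start, and Kdm5b holds 2, at 225 to 229 and at 15 to 19 bases. None is part of the palindromic E-box CACGTG. No match is present in the windows of Kdm1a, Kmt2a, Kmt2d or any of the 4 listed starts of Dpy30, so 2 of the 6 genes with an entry hold one. Of 27026 promoters cut to the same length, 1 per gene at its most upstream listed start, 38.6% hold at least 1 match. CACCTG, the E-box that SNAI2, ZEB1 and TWIST family factors of the study's mesenchymal arm can bind, was searched on both strands too. It was found at 1 of the 6 genes, Dpy30, and there only before downstream starts. Of the same 27026 promoters 17.1% hold it, whereas the most upstream window of Dpy30, the one that this share counts, does not. The printed windows hold 12 CpG dinucleotides in Wdr5, 13 in Kdm5b and 21 in Kdm1a, with a median of 6 over all promoters. Matches are a description of the letters.

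Within a library, the levels of the core subunits were not in fixed proportion. Wdr5 was between 0.906 and 1.33 times Ash2l in 6 libraries and 2.24 times Ash2l in 5C-Oct4GFP- cells (interval 2.07 to 2.42), which is outside the counting intervals of the other 6. Wdr5 was below Dpy30 everywhere, from 0.550 times in R1 ESCs-primed to 0.864 times in 5C-Oct4GFP- cells, where the interval was 0.794 to 0.940. The sum of the 3 core genes was 8.64, 7.90 and 11.4 times the sum of Kmt2a, Kmt2b and Kmt2d in mES-Oct4GFP+, 5C-Oct4GFP+ and 5C-Oct4GFP+ (naive) cells. It was 3.08 and 4.55 times that sum in mES-Oct4GFP- and 5C-Oct4GFP- cells, and 5.64 and 4.97 times in 5C-Oct4GFP+ (primed) cells and R1 ESCs-primed.

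The makeup of the Kdm5 family differed in the same way. Kdm5b was 2.68, 2.88 and 2.99 times Kdm5a in mES-Oct4GFP+, 5C-Oct4GFP+ and 5C-Oct4GFP+ (naive) cells, 1.12 and 1.16 times in mES-Oct4GFP- and 5C-Oct4GFP- cells, and 1.57 and 1.63 times in 5C-Oct4GFP+ (primed) cells and R1 ESCs-primed. Of the summed level of Kdm5a, Kdm5b, Kdm5c and Kdm5d, Kdm5b took 47.9% to 50.5% in the first 3 libraries and 30.2% to 41.7% in the other 4. Kdm5c, the X-linked member, took between 27.2% and 37.8%. Among the 6 catalytic genes Kmt2b held the largest share, 27.1% to 37.9%, in every library except 5C-Oct4GFP+ (primed), where Setd1a held 33.9% and Kmt2b 30.1%.

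**Figure D2:**
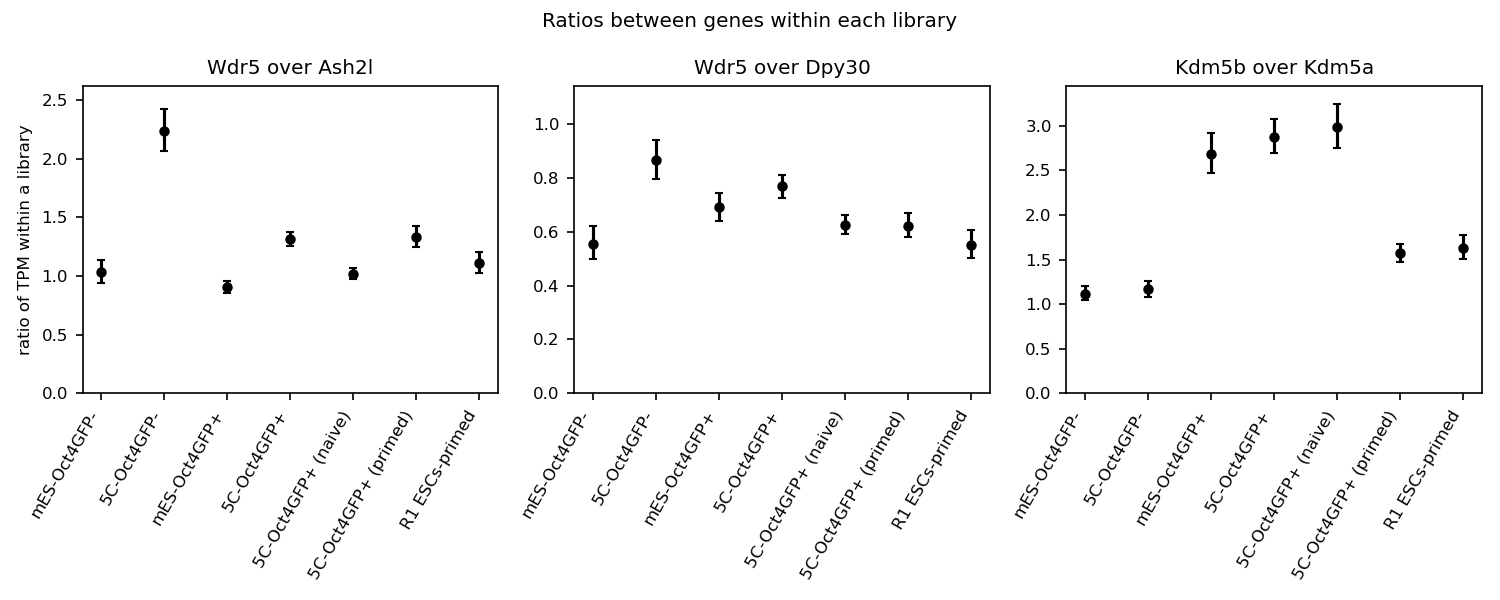
Points are ratios of TPM between genes of the same library, with bars for the 95% counting interval and axes that start at 0. Wdr5 over Ash2l stands at 2.24 in 5C-Oct4GFP- and at or below 1.33 in the other libraries, and Kdm5b over Kdm5a is above 2.6 only in the Oct4GFP+ and naive libraries.

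The first comparison asks how the medium affects cells that did not switch on the reporter, which the study used to look for epigenetic factors raised by 5C medium. In 5C-Oct4GFP- against mES-Oct4GFP- cells, Wdr5 and Dpy30 were at least 1.5-fold higher, no gene was at least 1.5-fold lower, and 7 of the 9 were past neither bound. The bound was set on log2(TPM + 1). Of 15859 genes with at least 1 TPM in either library, 19.9% were past it as higher and 19.1% as lower, so that 2 of 9 is near the background share. Wdr5 was 2.42 times higher (interval 2.25 to 2.61), and 93.8% of the tested genes had a smaller difference. The study chose Wdr5, and Kdm2b with it, among factors higher in these same libraries that earlier reports had tied to reprogramming. The Wdr5 value here is therefore no independent evidence. Kdm2b differed less in this comparison, with a ratio of 1.24 (interval 1.11 to 1.39), which is inside the 1.5-fold bound. The study also tested both genes by overexpression and knockdown, which these libraries do not cover.

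The other core subunits differed by unequal amounts. Dpy30 was 1.56 times higher (interval 1.39 to 1.75), Rbbp5 1.53 times (interval 1.35 to 1.72) and Ash2l 1.12 times (interval 1.01 to 1.24). Kmt2b, Kdm1a and Kmt2a were 1.29, 1.16 and 1.13 times higher, while Kmt2d, Kdm5b and Kdm5a were at 0.927, 0.896 and 0.860 times their level in mES-Oct4GFP- cells. The direction of Kmt2d depended on the scale, with a log2 difference of -0.11 on TPM and 0.20 on CPM (counts scaled to the library total, with no length). The median difference of the 9 genes was 0.17 on the log2 scale, against 0.03 over all genes tested. All 8 cycling markers were past the bound as higher (summed 2042 against 850.4 TPM) and 9 of 10 fibroblast markers were lower (273 against 616 TPM, none at 0 in either library). The tenth, Thy1, was past the bound as higher, at 53.3 against 8.73 TPM. Their part in these differences was not tested, and fewer cells of a type cannot be told apart from less RNA per cell in bulk libraries.

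In Oct4GFP+ cells the same change of medium left all 9 genes within 1.5-fold. Among 15196 genes tested, 21.9% were higher and 24.5% were lower by that bound. Ash2l was lowest relative to mES medium, at 0.755 times (interval 0.716 to 0.797), and Kmt2b was highest at 1.18 times (interval 1.10 to 1.26). The log2 difference of Kmt2b was 0.23 on TPM and 0.38 on CPM, the latter outside the counting interval. The length assigned to Kmt2b was 5688 bases in 5C-Oct4GFP+ and 5143 bases in mES-Oct4GFP+ cells. Wdr5 was 1.10 times higher (interval 1.04 to 1.15), and Dpy30 and Kdm5a had intervals that include 1. Kmt2d was at 0.864 times on TPM, a log2 difference of -0.21, which was 0.30 on CPM, and that of Kdm5a went from 0.04 to -0.21. The summed cycling markers were 2501 against 2741 TPM and the fibroblast markers 13.1 against 15.7 TPM in this pair.

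**Figure D3:**
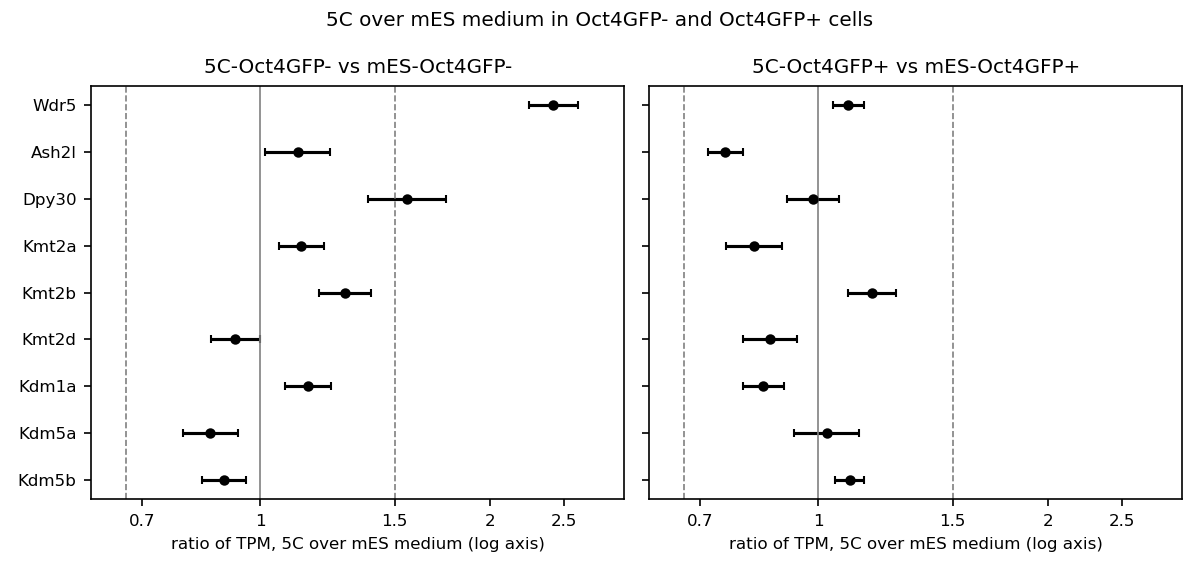
Ratios of TPM in 5C over mES medium (log axis) are drawn for the 9 genes with bars for the 95% counting interval, for Oct4GFP- cells on the left and Oct4GFP+ cells on the right, and dashed lines mark 1.5-fold. Wdr5 at 2.42 and Dpy30 at 1.56 lie past the line in Oct4GFP- cells, and all 9 genes lie inside both lines in Oct4GFP+ cells.

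The sort compares cells with and without the reporter in 1 medium. In mES medium, Wdr5, Ash2l, Dpy30 and Kdm5b were at least 1.5-fold higher in Oct4GFP+ than in Oct4GFP- cells and none of the 9 was lower by that much. The background was 27.5% higher and 38% lower of 16294 genes. The ratios were 3.43 for Wdr5 (interval 3.19 to 3.69), 3.90 for Ash2l (3.59 to 4.25), 2.76 for Dpy30 (2.47 to 3.08) and 2.10 for Kdm5b (1.99 to 2.23). Kmt2b and Kdm1a were inside the bound at 1.45 and 1.40 times, but with FPKM and after median-ratio rescaling both were past it, which made 6 of the 9 higher. Kmt2a and Kdm5a were at 0.803 and 0.876 times, and Kmt2d at 0.979 times with an interval that includes 1.

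In 5C medium the same 4 genes were at least 1.5-fold higher in Oct4GFP+ cells, against 14.7% of 15675 genes, and Kmt2a was lower, against 35.5%. Ash2l was 2.63 times higher (interval 2.44 to 2.84) and Kdm5b 2.58 times (2.44 to 2.72). Dpy30 was 1.74 times higher (1.60 to 1.90) and Wdr5 1.55 times (1.47 to 1.63). Kmt2a was at 0.584 times (0.544 to 0.628), and when the libraries were rescaled by the median ratio it was no longer past the bound and Kmt2b was, as higher. With that rescaling the share of higher genes among all those past the bound went from 29.3% to 41.6%. Wdr5 was thus 3.43 times higher in GFP-positive cells in mES medium and 1.55 times in 5C medium, while Kdm5b was 2.10 and 2.58 times higher. Whether these ratios differ beyond the spread of cultures cannot be tested with 1 library each.

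Fibroblast markers moved with the sort. They summed to 15.7 against 616 TPM in mES medium, with 10 of 10 at least 1.5-fold lower in GFP-positive cells, and to 13.1 against 273 TPM in 5C medium, with 9 of 10 lower. Twist2 was at 0 in mES-Oct4GFP+ cells, and no other fibroblast marker was at 0 in these 4 libraries. Cycling markers were higher in GFP-positive cells for 7 of 8 in mES medium and for 3 of 8 in 5C medium, where 1 was lower. Their part in the differences of the 9 genes was not tested.

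Conversion of 5C-Oct4GFP+ cells in naive medium left all 9 genes within 1.5-fold of the starting cells. The background was 18.3% higher and 28.6% lower of 14863 genes. Ash2l and Dpy30 were 1.32 and 1.25 times higher (intervals 1.25 to 1.38 and 1.17 to 1.34). Kdm5a, Kdm5b and Kmt2b were at 0.682, 0.708 and 0.719 times their starting level, with intervals of 0.618 to 0.753, 0.679 to 0.738 and 0.673 to 0.767. Wdr5 and Kmt2d had intervals that include 1, but the log2 difference of Kmt2d was -0.46 on CPM against 0.11 on TPM. That of Kdm5a was -0.24 on CPM against -0.54 on TPM, and that of Kdm5b -0.40 against -0.49. Both of these CPM values were outside the counting interval. The length assigned to Kdm5a was 3308 bases in 5C-Oct4GFP+ and 3902 bases in 5C-Oct4GFP+ (naive) cells.

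In primed medium 5 of the 9 genes were at least 1.5-fold lower than in the starting 5C-Oct4GFP+ cells, Wdr5, Ash2l, Dpy30, Kmt2b and Kdm5b, and none was higher. On CPM and after rescaling Kmt2d was lower by that bound too. Of 15067 genes, 24.3% were lower and 24.2% higher. Ash2l was at 0.448 times (interval 0.421 to 0.477), Wdr5 at 0.455 times (0.433 to 0.478) and Kdm5b at 0.526 times (0.504 to 0.549). Dpy30 was at 0.561 times (0.519 to 0.607) and Kmt2b at 0.618 times (0.580 to 0.658). The median difference of the 9 genes was -0.68 on the log2 scale and 0.06 over all genes tested. With R1 ESCs-primed in place of 5C-Oct4GFP+ (primed), an alternative chosen after seeing the data, Kmt2b was no longer past the bound and the other 4 still were. All 10 fibroblast markers were at least 1.5-fold higher in the primed cells (80.5 against 13.1 TPM) and none of the 8 cycling markers was past the bound.

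The primed and naive products were compared directly. Wdr5, Ash2l, Dpy30 and Kmt2d were at least 1.5-fold lower in 5C-Oct4GFP+ (primed) than in 5C-Oct4GFP+ (naive) cells, none was higher, and the background was 24.4% lower and 32.6% higher of 15249 genes. Ash2l was at 0.340 times (interval 0.320 to 0.362), Wdr5 at 0.446 times (0.424 to 0.469) and Dpy30 at 0.448 times (0.414 to 0.484). Kmt2d was at 0.631 times (0.580 to 0.687), and on CPM its difference was -0.29 and inside the bound. Kdm5a was 1.41 times higher and Kmt2a 1.30 times. Library swaps chosen after seeing the data changed some of these values. With R1 ESCs-primed as the primed library the log2 difference of Kmt2d was -0.49, inside the bound. With mES-Oct4GFP+ as the naive library Kdm5b was past the bound as lower (-0.78). In that second swap the differences of Kdm5a and Kmt2a were -0.02 and -0.06. Fibroblast markers were higher in the primed library for 9 of 10 (80.5 against 9.48 TPM), with Twist2 at 0 in the naive library. Cycling markers summed to 2816 against 2637 TPM. Their part was not tested.

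Both primed libraries were close to each other for all 9 genes, none of which was past 1.5-fold. Between 5C-Oct4GFP+ (primed) cells and R1 ESCs-primed, 6.73% of 14600 genes were higher and 11.1% lower. The ratios of the 9 genes ran from 0.857 for Kmt2b to 1.15 for Kdm1a, and 3 of them, those of Dpy30, Kdm5a and Kdm5b, had intervals that include 1. The fibroblast markers differed in this pair, at 80.5 against 229.5 TPM, with 8 of 10 lower in 5C-Oct4GFP+ (primed) cells. Several of these comparisons share a library, so their values do not count as separate evidence.

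**Figure D4:**
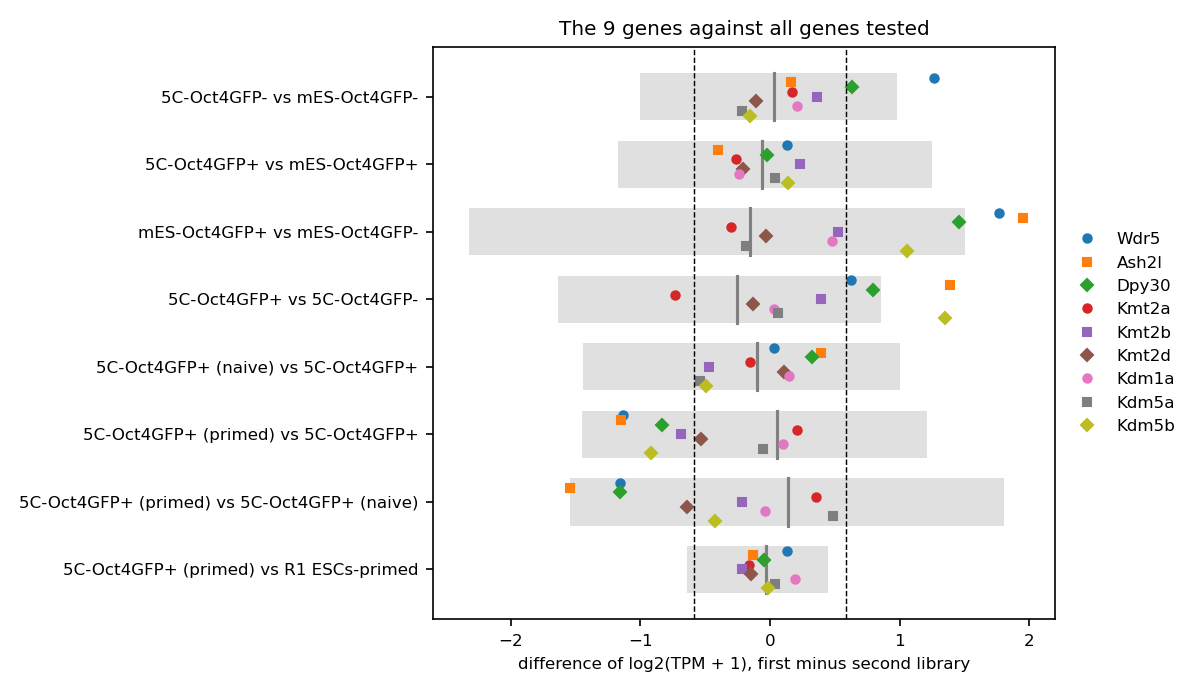
Each coloured point is the difference of log2(TPM + 1) of a gene between the first and second library named on the left, grey bars span the 10th to 90th percentile of all genes tested, the grey line is their median and dashed lines mark 1.5-fold. Wdr5, Ash2l and Dpy30 are past the right line in both sorts and past the left line in both primed comparisons with 5C-Oct4GFP+ or naive cells, and all 9 genes are between the lines in 5C-Oct4GFP+ (primed) against R1 ESCs-primed.

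The 49 other genes listed for the pathway give the setting. In 5C-Oct4GFP- against mES-Oct4GFP- cells 6 of the 49 were at least 1.5-fold higher and 1 was lower, both below the 19.9% and 19.1% of all genes tested. Of 12 listed subunits outside the shared core and the catalytic genes, 4 were higher, against the same 19.9%. Paxip1 and Pagr1a, both of the Kmt2c and Kmt2d complexes, were 2.04 times higher (intervals 1.82 to 2.29 and 1.75 to 2.37). Cxxc1, the CpG-binding subunit of the Setd1 complexes, was 1.83 times higher (1.61 to 2.07), and Psip1, which tethers the menin complexes to chromatin, 1.77 times (1.67 to 1.88). Smyd1 was 1.67 times higher at 6.29 TPM (1.17 to 2.40). Phf21a, the CoREST subunit that reads unmethylated H3K4, was at 0.627 times (0.573 to 0.686). Among the 3 other catalytic genes, 4 other demethylases and 13 readers none was past the bound.

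In Oct4GFP+ cells 6 of the 49 were higher and 9 lower in 5C medium, both below the background of 21.9% and 24.5%. Phf21a was at 89.6 TPM in 5C medium and 14.4 TPM in mES medium, a ratio of 6.23 (interval 5.22 to 7.50). Setd7, Gse1 and Setd1b were 2.98, 2.57 and 2.53 times higher in 5C medium. Smyd2 was at 30.8 against 118 TPM, or 0.260 times (0.223 to 0.303), and Hcfc2 at 0.253 times. Smyd2 was between 56.2 and 118 TPM in the other 6 libraries, so 5C-Oct4GFP+ cells were its lowest point.

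With the sort, 10 of 49 were higher and 9 lower in mES medium, and 4 were higher and 8 lower in 5C medium. All 4 counts were below the background, which was 27.5% higher and 38% lower in mES medium and 14.7% and 35.5% in 5C medium. In mES medium the largest differences were those of Setd7 (0.0819 times), Phf21a (14.4 against 131 TPM) and Phf2, a reader of H3K4 trimethylation (3.07 against 25.7 TPM), all lower in GFP-positive cells. Paxip1, Ing5 and Kdm2b were 3.30, 3.24 and 2.93 times higher. In 5C medium Kdm2b, a demethylase that recruits a Polycomb complex, was 3.09 times higher (interval 2.85 to 3.35), at 166 against 53.8 TPM. Phf2, Prdm9, Smyd2, Hcfc2 and Setd7 were lower, at 0.199, 0.187, 0.303, 0.255 and 0.341 times, with Prdm9 at 1.47 TPM.

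Between naive and starting cells 9 of 49 were higher and 12 lower, and between primed and starting cells 6 were higher and 10 lower. The background was 18.3% higher and 28.6% lower in the naive pair and 24.2% and 24.3% in the primed pair, and the 9 higher were near that share and the other counts below it. In naive medium Phf21a was at 0.138 times, Phf2 at 0.281 times and Setd7 at 0.327 times, while Hcfc2 and Smyd2 were 2.95 and 2.60 times higher and Gse1 was at 0.406 times. In primed medium Setd7 was 4.36 times higher (interval 3.89 to 4.90) and Prdm9 3.20 times. Kdm2b was at 0.420 times (0.395 to 0.446), Kdm6a at 0.428 times and Smyd3 at 0.461 times. The length assigned to Kdm2b was 2921 bases in 5C-Oct4GFP+ and 4179 bases in 5C-Oct4GFP+ (primed) cells, which enters its TPM. Other scales were tried for the 9 genes only, not for these 49. Smyd1 rested on 1 count in the primed library.

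Of the 11 CoREST partners of Kdm1a, 6 were at least 1.5-fold higher in primed than in naive cells and none was lower, against 32.6% and 24.4% of all genes tested. Their median log2 difference was 0.75, against 0.14 over all genes, and Kdm1a itself was at 0.972 times. Rcor2, a CoREST scaffold protein, was at 175 against 65.7 TPM and Phf21a at 49.75 against 12.4 TPM. Over all 49 genes 12 were higher and 9 lower in this pair, below those shares. Setd7, which monomethylates H3K4, was at 38.9 against 2.92 TPM, a ratio of 13.3 (interval 10.2 to 17.8), Phf2 was 5.76 times higher, and Phf13 and Hcfc2 were at 0.323 and 0.305 times. Between the 2 primed libraries 1 of 48 genes was higher and 4 lower, below the 6.73% and 11.1% of all genes, and the latter were Kdm6a, Setd1b, Hcfc2 and Phf21a at 0.532, 0.592, 0.551 and 0.644 times. The higher gene was Kdm5d, at 19.9 TPM in 5C-Oct4GFP+ (primed) cells and 0.82 TPM in R1 ESCs-primed, a Y-linked gene that lay between 8.79 and 12.6 TPM in the other 5 libraries.

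**Figure D5:**
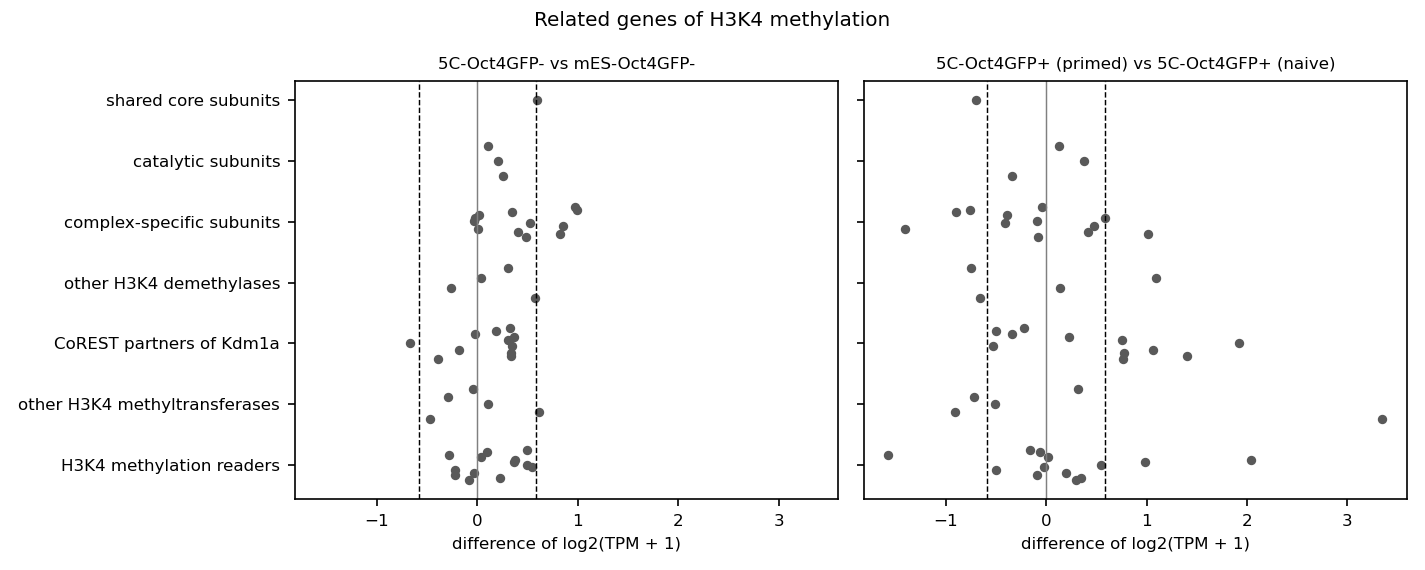
Each point is the difference of log2(TPM + 1) of 1 of the 49 related genes, by list, for 5C-Oct4GFP- against mES-Oct4GFP- on the left and primed against naive cells on the right, with dashed lines at 1.5-fold. On the left 6 genes are past the right line and 1 past the left, and on the right 6 of the 11 CoREST partners are past the right line and Setd7 is the farthest point.

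Genes with the most similar profile were found by Pearson r of log2(TPM + 1) over the 7 libraries, among 8418 genes with at least 5 TPM in each. The libraries share origin and depth in part, so r is given as a description. For Wdr5 the closest 3 included Bid (r = 0.99) and Aars2 (0.99). Ash2l was closest to Zfp229, Mcm3ap and Gm5148 (each 0.99), and Dpy30 to Gfer (0.99), Impa2 (0.99) and Zfp991 (0.98). The catalytic Kmt2a was closest to Nsmaf (1.00), Cnot6l (0.99) and Ube3a (0.98), Kmt2b to Chka (0.97), Mms19 (0.96) and Ywhaq (0.95), and Kmt2d to Abhd12, Fam53b and Pias3 (each 0.99). Kdm1a was closest to Yrdc (0.99), Haus4 (0.98) and Cenpl (0.96), Kdm5a to Dclre1a (0.97), Tmem60 (0.96) and Xrn1 (0.96), and Kdm5b to Zswim1, Rest and Map4k1 (each 0.98). At an r of at least 0.95 Ash2l had 106 such genes and Kmt2b had 3.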

How the data were processed

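RNA was extracted by the authors with TRIzol, and TruSeq v2 libraries, a kit that does not keep strand, were sequenced on an Illumina MiSeq. The submitters' processing notes name Bowtie, RSEM and mm10, with versions not given in the sources used here. The deposited expected counts are the authors' RSEM estimates of reads per Ensembl gene, not normalized. The TPM values deposited by the authors divide them by effective length and scale each library to the same sum, and the deposited FPKM values scale them by mapped fragments. Length and effective length are deposited too, and follow the isoform mix RSEM estimated.

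TPM was the main measure, as in the methods of the study. Symbols came from an annotation table that matched 28756 of 29267 identifiers. Each of the 8 comparisons gave the ratio of TPM with an exact Clopper-Pearson 95% interval from counts rounded to whole numbers, and a difference of log2(TPM + 1), called at 1.5-fold among genes with at least 1 TPM in either library. With 1 library per group (6108252 to 11496615 counts) no test was run and intervals hold counting error alone. Other genes were named if past 1.5-fold, the 6 largest per comparison, and the 3 most similar profiles per gene. The genes, lists and markers were chosen with earlier results of these data known. Alternatives were FPKM, CPM (computed from the counts), median-ratio rescaling, a pseudocount of 0.1, other filters and a 2-fold bound. The interval code was tested on simulated data. Wdr5b, a close copy of Wdr5, had 4 to 20 counts per library. Promoters came from RefSeq on GRCm38.p6. Intervals came from scipy 1.17.1, tables from pandas 2.3.3 with numpy 2.4.6 under Python 3.11.15, and plots from matplotlib 3.10.9. A gene among those most like Wdr5 is not reported here.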

Additional observations from a re-analysis of the deposited data

Results flagged for a closer look

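The change from mES to 5C medium went in opposite directions in Oct4GFP+ and Oct4GFP- cells for 4 of the 9 genes, with both counting intervals clear of 1. Ash2l was at 0.755 times its mES level in Oct4GFP+ cells and 1.12 times in Oct4GFP- cells. Kmt2a was at 0.824 and 1.13 times, and Kdm1a at 0.846 and 1.16 times. Kdm5b went the other way, at 1.10 times in Oct4GFP+ and 0.896 times in Oct4GFP- cells. Each of these 8 ratios is within 1.5-fold, rests on 1 library per group, and the difference between the sorted populations was not tested.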

How the results depend on the processing

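No paired analysis was possible because each group is 1 library, and for the same reason no library could be left out. Of the 20 differences past 1.5-fold among the 9 genes, 18 stayed past it with FPKM, with CPM, after median-ratio rescaling and with a pseudocount of 0.1, which includes every call for Wdr5, Ash2l, Dpy30 and Kdm5b. The exceptions were Kmt2a in 5C-Oct4GFP+ against 5C-Oct4GFP- cells after rescaling (-0.52, leaving 0 lower) and Kmt2d in primed against naive cells on CPM (-0.29). Another 5 differences came past the bound under at least 1 of these settings. They were Kmt2b (0.64 with FPKM, 0.68 after rescaling) and Kdm1a (0.60, 0.63 and, on CPM, 0.64) in the sort in mES medium, Kmt2b in the sort in 5C medium after rescaling (0.62), Kmt2d in primed against 5C-Oct4GFP+ cells (-0.75 on CPM, -0.59 after rescaling) and Kdm5b in primed against naive cells after rescaling (-0.61). No difference past the bound changed sign, but 11 smaller ones did, among them on CPM those of Kmt2d in 3 comparisons and of Kdm5a in 4. Filters at 5 TPM or none could not change any count, since the lowest level of the 9 genes in any library was 12.8 TPM. The background did change. With no filter it was 11.96% higher and 11.41% lower in 5C-Oct4GFP- against mES-Oct4GFP- cells, from 19.9% and 19.1%. In the sort in mES medium it was 16.55% and 23.03%, from 27.5% and 38%. A 2-fold bound left 1 gene higher in 5C-Oct4GFP- against mES-Oct4GFP-, 2 higher and 0 lower in 5C-Oct4GFP+ against 5C-Oct4GFP-, and 2 lower in primed against 5C-Oct4GFP+ cells.

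Rescaling moved the median of all genes by over 0.1 in 4 comparisons, from -0.15 to -0.01 and from -0.25 to -0.05 in the sorts in mES and 5C medium, from -0.10 to 0.01 in naive against 5C-Oct4GFP+ and from 0.14 to -0.03 in primed against naive cells. The median of the 9 genes went there from 0.53 to 0.68, 0.39 to 0.62, 0.03 to 0.15 and -0.42 to -0.61. On CPM it was 0.50 in the sort in 5C medium, -0.092 in naive against 5C-Oct4GFP+, -0.79 in primed against 5C-Oct4GFP+ and -0.35 in primed against naive cells, and with FPKM it was 0.10 in naive against 5C-Oct4GFP+. Of the alternatives chosen after seeing the data, R1 ESCs-primed as the primed library gave -0.46 against 5C-Oct4GFP+ cells, and mES-Oct4GFP+ as the naive library gave -0.74. The cause of these shifts was not tested.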
